A study of Mus musculus with 2 samples.

Results

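The Cfap genes (cilia and flagella associated proteins) were examined in CD133+ cells of the adult mouse spinal cord. The members were chosen by name alone, as every gene of the count tables whose symbol is Cfap followed by a digit. This gave 25 of the 24071 genes in the tables, and all 25 were listed for both libraries. They were Cfap20, Cfap36, Cfap43, Cfap44, Cfap45, Cfap46, Cfap52, Cfap53, Cfap54, Cfap57, Cfap58, Cfap61, Cfap69, Cfap70, Cfap73, Cfap74, Cfap77, Cfap97, Cfap99, Cfap100, Cfap126, Cfap157, Cfap161, Cfap206 and Cfap221.

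Motile cilia are built on a ring of microtubule doublets around a central pair, and they beat because dynein motors slide neighbouring doublets against each other. The name Cfap is a catch-all for proteins of this machine. Some line the inside of the microtubules, some belong to the central apparatus, and some tether, anchor or regulate the dynein arms and radial spokes. Ependymal cells line the ventricles of the brain and the central canal of the cord, and their motile cilia move cerebrospinal fluid. Endothelial cells and the mural cells around vessels (pericytes and smooth muscle) do not carry beating cilia.

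Both libraries came from C57BL/6j mice of 10 to 12 weeks with the genotype Clec9acre/creR26LSLtdTomato/LSLtdTomato, which are homozygous for Cre at Clec9a, the DNGR-1 gene, and for a Cre-dependent tdTomato reporter at R26. A cell that has expressed Clec9a, or that descends from such a cell, can become red in these animals. The paper holds that incomplete recombination explains part, but not all, of the partial labelling of ependymal cells. Cells lacking tdTomato can therefore include some with a history of Clec9a expression. Live CD45- CD133+ cells (CD133 is a surface protein of ependymal and some endothelial cells) were sorted after depletion of myelin, and those with tdTomato made the traced library (CD133+ DNGR-1 traced) and those lacking it the other (CD133+ non-traced). Each group was 1 library with no replicate, so no test between groups was possible and no p-value is given. The number of animals behind each library is not given in the sources used here. Both groups carried the knock-in alleles, and tracing, sort gate and library cannot be told apart.

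The non-traced library held 25411 cells and 233318692 unique molecular identifiers (UMIs, each marking a captured RNA molecule), and the traced library 4825 cells and 46530507 UMIs. The median depth was 7218 and 8566 UMIs per cell. The libraries shared 42 cell barcodes. Cells were classed by marker genes after clustering without the Cfap genes. In the non-traced library 21062 cells were endothelial-like (82.9%), 1162 ependymal-like (4.57%) and 286 were mural cells of cluster 17 (1.13%), and in the traced library 4701 were ependymal-like (97.4%) and 62 endothelial-like. The 10 ependymal markers summed to 9209 CPM (UMI counts scaled to the total of the class) in ependymal-like cells of the non-traced library and to 8421 CPM in those of the traced library, against 38.0 CPM in endothelial-like and 132 CPM in mural cells. The 8 pericyte markers summed to 24309 CPM in cluster 17, but its leading genes were those of smooth muscle, among them Tagln (6913 CPM), Acta2 (7080 CPM) and Myh11, so it is called by its number or as the mural cells. Clusters 9 and 15, led by pericyte genes such as Abcc9 and Higd1b, also carried endothelial markers and are not among them. Of the mural cells 195 (68.2%) carried at least 2 of the vascular transcripts Cldn5, Flt1, Pecam1 and Ly6c1, and the 8 endothelial markers summed to 1847 CPM there, whose part in the Cfap levels was not tested. Ttr, the defining gene of the choroid plexus, was at 0 in ependymal-like cells of both libraries, whereas Folr1, also listed for that tissue, stood at 196 and 252 CPM. Mostly different clusters made up the ependymal-like class of the 2 libraries, with 787 and 375 non-traced cells in clusters 11 and 14. The traced cells lay mainly in clusters 7, 8 and 10 (1416, 1353 and 1112 cells). Clusters 16, 14 and 18 held 392, 189 and 173 more, so cluster 14 was shared. Cluster 13 was treated differently in the 2 libraries. Its 617 non-traced cells carried both ependymal and endothelial markers, had Cfap46 among their leading genes and were left out. Its 6 traced cells were kept as ependymal-like. The part of this in the differences between the libraries was not tested.

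RFX transcription factors act with FOXJ1 to switch on genes of motile cilia, and they bind a pair of inverted repeats known as the X-box. Windows from 250 bases before to 50 bases after the start site were read from RefSeq (build GRCm38.p6) for the 20 members listed in its promoter table. The X-box consensus, with up to 3 bases between the repeats and searched on both strands, was found for 4 of the 20 members, compared with 1.75% of the 27025 genes in the table. The 80 bases before the start of these 4 genes, all on the plus strand, are shown because the match lay close to the start in each. Capitals mark the X-box match.
Cfap44 (chr16:44394719-44394798): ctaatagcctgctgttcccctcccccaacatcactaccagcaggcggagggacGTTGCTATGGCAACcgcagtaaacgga
Cfap45 (chr1:172521050-172521129): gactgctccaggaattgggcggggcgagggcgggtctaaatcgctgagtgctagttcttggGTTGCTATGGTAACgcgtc
Cfap58 (chr19:47937632-47937711): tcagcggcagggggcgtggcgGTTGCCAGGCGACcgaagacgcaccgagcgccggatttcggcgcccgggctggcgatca
Cfap99 (chr5:34288585-34288664): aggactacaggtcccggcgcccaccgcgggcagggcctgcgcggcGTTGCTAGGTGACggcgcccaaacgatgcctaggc

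The match ended 14 bases before the start of Cfap44, 6 bases before that of Cfap45, 47 bases before that of Cfap58 and 23 bases before that of Cfap99. A single copy of the repeat, GTTGCC on either strand, was found for 7 of the 20 members (Cfap20, Cfap44, Cfap46, Cfap58, Cfap74, Cfap100 and Cfap161) and for 14.1% of all genes, and in Cfap44 and Cfap58 it overlapped the X-box. A forkhead core, TGTTTAC on either strand, was found for Cfap20 and Cfap43 and for 4.05% of all genes. These are letter matches in a short window, and no binding was measured. The genes for the factors were detected in ependymal-like cells. Foxj1 stood at 510 CPM in the non-traced and 474 CPM in the traced library, Rfx3 at 137 and 140 CPM, and Rfx2 at 56.9 and 59.0 CPM.

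To ask in which of the sorted cells the Cfap genes were expressed, ependymal-like cells were compared with endothelial-like and mural cells of the same library. Summed over the 25 members, the level was 4463 CPM in ependymal-like cells (95% exact Poisson interval 4419 to 4508), 185 CPM in endothelial-like cells (183 to 187) and 286 CPM in mural cells (260 to 314). Here and below, intervals cover counting error only. All 25 members passed the filter of 1 CPM on either side. Of these, 24 were higher in ependymal-like than in endothelial-like cells by more than 1 on the log2(CPM + 1) scale, with a median difference of 6.46. The same was true of 31% of the 15359 genes tested, whose median difference was 0.23. Against mural cells 24 members were higher by more than 1, with a median of 5.02, compared with 28% of 15728 genes, and all 25 were higher by some amount (57.3% of genes in the first comparison and 54.8% in this one). The exception in both comparisons was Cfap97. The added 1 CPM understates the differences of genes that were nearly absent from vascular cells.

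**Figure D1:**
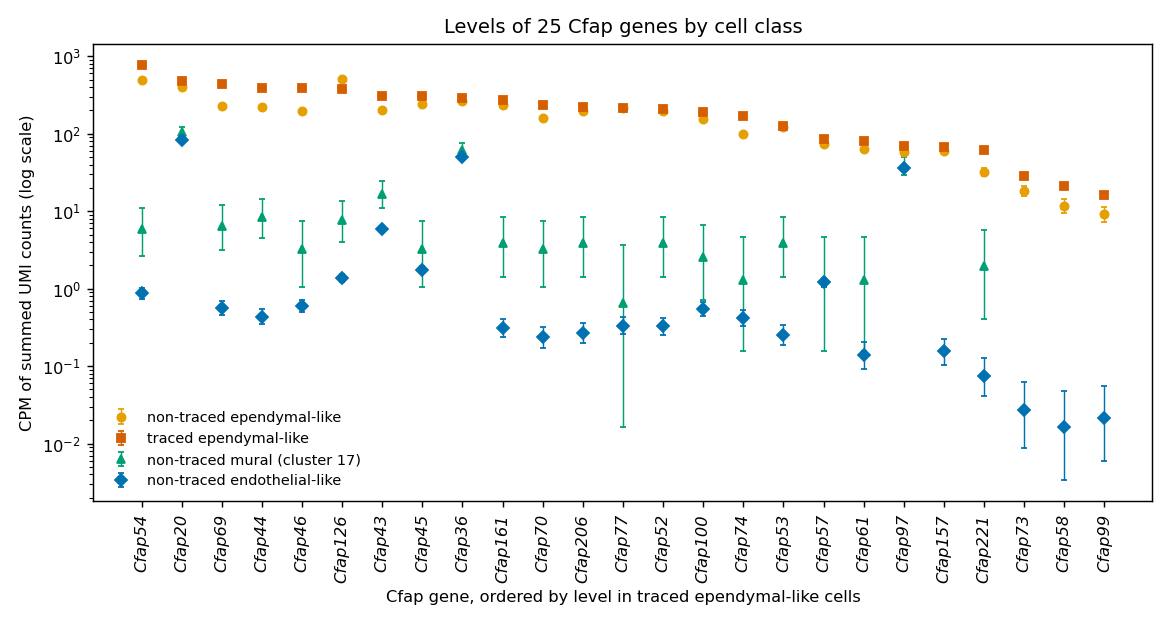
Level of each of the 25 Cfap genes (horizontal axis, ordered by level in traced ependymal-like cells) in CPM of summed UMI counts (vertical axis, log scale) in 4 cell classes, with 95% exact Poisson intervals; a gene with no UMI in a class has no point there. The endothelial-like and mural points lie far below the ependymal-like points except for Cfap20, Cfap36 and Cfap97, whose endothelial-like levels are 82.8, 50 and 36.1 CPM.

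The microtubule inner proteins line the inside of the ciliary doublets. Cfap126, also called Flattop, stood at 508 CPM in ependymal-like cells, 1.38 CPM in endothelial-like cells and 7.79 CPM in mural cells. Cfap45 stood at 242, 1.76 and 3.24 CPM in the same classes. Cfap161 stood at 238, 0.313 and 3.89 CPM. These genes were thus close to absent from both vascular classes, and so were Cfap77 (213, 0.334 and 0.649 CPM), Cfap52 (195, 0.329 and 3.89 CPM) and Cfap53 (123, 0.254 and 3.89 CPM). Cfap20, an inner junction protein, was the exception in this group. Its level was 398 CPM in ependymal-like cells, but 82.8 CPM in endothelial-like and 106 CPM in mural cells.

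The central apparatus is the set of projections around the central microtubule pair. Cfap54 had the largest difference of the 25 members between ependymal-like and endothelial-like cells, 8.04 on the log2(CPM + 1) scale, with levels of 489 and 0.869 CPM and a mural level of 5.84 CPM. Cfap69 stood at 227 CPM in ependymal-like, 0.566 CPM in endothelial-like and 6.49 CPM in mural cells. Cfap46 stood at 199, 0.599 and 3.24 CPM. Every member of the group was higher in ependymal-like cells than in both vascular classes, by at least 3.31 on the log2(CPM + 1) scale. Cfap74 stood at 99.6, 0.421 and 1.298 CPM, and Cfap221 at 32.1, 0.0755 and 1.95 CPM. Cfap99 stood at 9.13 CPM in ependymal-like cells, with 4 UMIs in all endothelial-like cells and 0 in mural cells. The exact interval of the mural to ependymal-like ratio reached 26.8% for Cfap99 and, on 3 mural UMIs, 17.9% for Cfap221.

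Another group tethers, anchors or regulates the dynein arms and radial spokes. Cfap44, part of the tether of an inner dynein arm, stood at 224 CPM in ependymal-like, 0.437 CPM in endothelial-like and 8.43 CPM in mural cells. Its partner Cfap43 stood at 205, 5.97 and 16.9 CPM, the highest vascular levels of the group. Cfap206, at the base of a radial spoke, stood at 197, 0.270 and 3.89 CPM. Cfap70, an outer dynein arm protein, had an endothelial-like level of 0.237 CPM, and Cfap61, a spoke protein, one of 0.140 CPM, against 62.8 CPM in ependymal-like cells. Cfap100 and Cfap73 act together on the inner arms. Cfap100 stood at 156 CPM in ependymal-like cells against 0.550 CPM in endothelial-like cells, and Cfap73 at 18.3 CPM with 5 UMIs in all endothelial-like cells. Cfap57, at the base of an inner arm, stood at 73.3, 1.21 and 1.298 CPM.

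The remaining members have other roles. Cfap157, a basal body protein, stood at 59.1 CPM in ependymal-like cells against 0.156 CPM in endothelial-like cells, and Cfap58, known from the sperm flagellum, at 11.8 CPM with 3 UMIs in all endothelial-like cells. Cfap36 and Cfap97 are not restricted to motile cilia. Cfap36 stood at 265, 50 and 61.6 CPM in ependymal-like, endothelial-like and mural cells. Cfap97 stood at 57.8, 36.1 and 38.9 CPM, a difference on the log2(CPM + 1) scale of 0.66 from endothelial-like and 0.56 from mural cells. In both cases the interval of its log2 ratio stayed above 0.

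To set the members beside each other, each level was expressed as a share of the ependymal-like level of the same gene. For 20 of the 25 members the endothelial-like level was under 1% of the ependymal-like level, with a median of 0.215% and a range from 0.131% to 0.728%. The 10 ependymal marker genes had a median share of 0.129% and a range from 0.0782% to 3.54%, the highest being Sox9. The other 5 members stood above the 20. Cfap57 reached 1.65% (interval 1.41 to 1.92), Cfap43 reached 2.92% (2.70 to 3.15), Cfap36 reached 18.9% (18.0 to 19.8), Cfap20 reached 20.8% (20.1 to 21.6) and Cfap97 reached 62.5% (57.0 to 68.5). All 5 were above the 9 ependymal markers other than Sox9, of which Foxj1 had the highest share, 0.236%.

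In mural cells, where 1541210 UMIs were counted in all, the 20 members had a median share of 1.63% and a range up to 6.06%. The highest share was that of Cfap221, on 3 UMIs. Ependymal markers were found in these cells too, with a sum of 132 CPM against 9209 CPM in ependymal-like cells. For example, Foxj1 stood at 7.14 against 510 CPM. Up to 16 members were found in a single mural cell at full depth. The part of ependymal transcripts from other cells in the mural levels was not tested. No UMI was found there for Cfap58, Cfap73, Cfap99 and Cfap157, for which the exact interval runs from 0 to 2.39 CPM. Cfap43 reached 8.24% (5.37 to 12.1), Cfap36 reached 23.3% (18.7 to 28.6), Cfap20 reached 26.6% (22.6 to 31.1) and Cfap97 reached 67.3% (50.6 to 88.1). The same 3 members, Cfap20, Cfap36 and Cfap97, were thus the highest by share in both vascular classes.

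**Figure D2:**
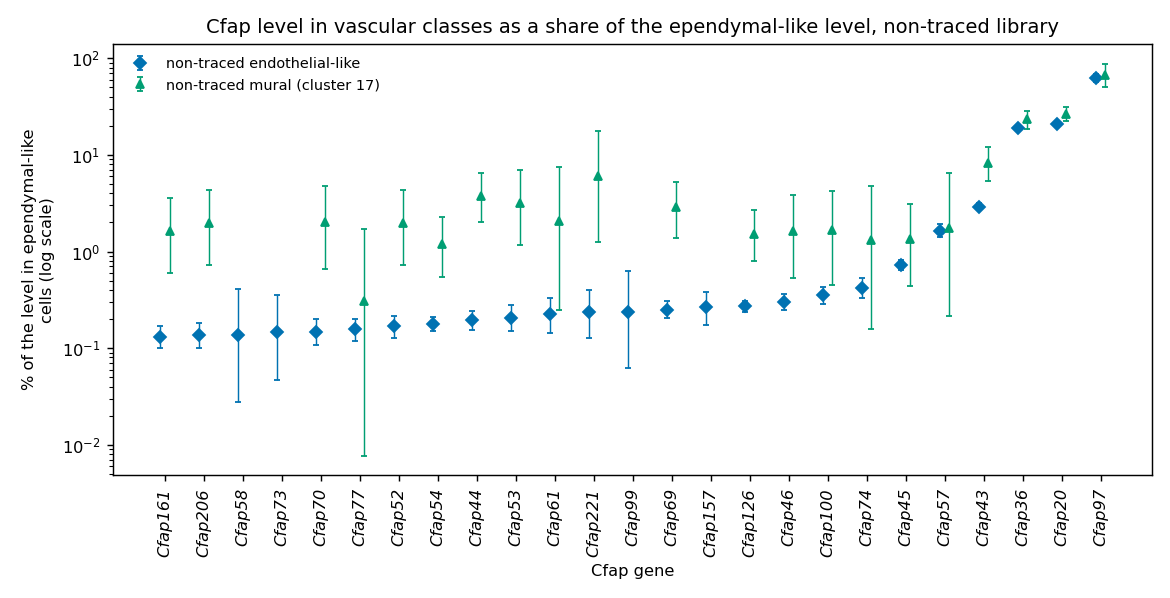
Level of each Cfap gene (horizontal axis) in endothelial-like and mural cells as a percentage of its level in ependymal-like cells of the non-traced library (vertical axis, log scale), with 95% exact intervals of the ratio; a gene with no UMI has no point. In endothelial-like cells 20 genes lie under 1%, Cfap57 and Cfap43 at 1.65% and 2.92%, and Cfap36, Cfap20 and Cfap97 at 18.9%, 20.8% and 62.5%.

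Over the 10 clusters with at least 50 endothelial-like cells, Cfap20 ranged from 74.7 to 94.2 CPM, Cfap36 from 44.2 to 86.1 CPM and Cfap97 from 28.8 to 40.5 CPM. These members were therefore present in each of the clusters. Cfap43 ranged more widely, from 3.26 CPM (interval 2.52 to 4.15) to 19.6 CPM, the latter on 5 UMIs. Cfap43 lies on the minus strand of chromosome 19 from 47736857 to 47919287 (GRCm38, GENCODE vM21). In that annotation another protein-coding gene, Itprip, overlaps it on the same strand from 47894602 to 47919299, and no gene of that name is listed in the tables analysed here. The part of Itprip reads in the Cfap43 counts was not tested. No other member overlapped a protein-coding gene on its own strand.

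The 62 endothelial-like cells of the traced library had a summed Cfap level of 1263 CPM (1177 to 1355) and a sum of 1746 CPM for the ependymal markers. Of these cells, 49 (79.0%) carried at least 2 of the 4 vascular transcripts. They were used in no comparison.

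The number of Cfap genes found per cell was compared after every cell was thinned to 1000 UMIs. A traced ependymal-like cell had UMIs of a median of 5 members (quartiles 3 and 6), and a non-traced ependymal-like cell of 4 (quartiles 3 and 5). The median was 0 in endothelial-like and in mural cells. No member was found in 0.532% of traced (exact binomial interval 0.344 to 0.784) and 1.98% of non-traced (1.26 to 2.96) ependymal-like cells, but in 83.3% of endothelial-like (82.8 to 83.8) and 78.3% of mural cells (73.1 to 83.0). Without thinning, the medians were 18 and 14 members in traced and non-traced ependymal-like cells, at median depths of 8581 and 7064 UMIs, and 1 member in endothelial-like cells, at 6924.5 UMIs. At full depth 1 of the 4701 traced ependymal-like cells had no Cfap UMI.

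**Figure D3:**
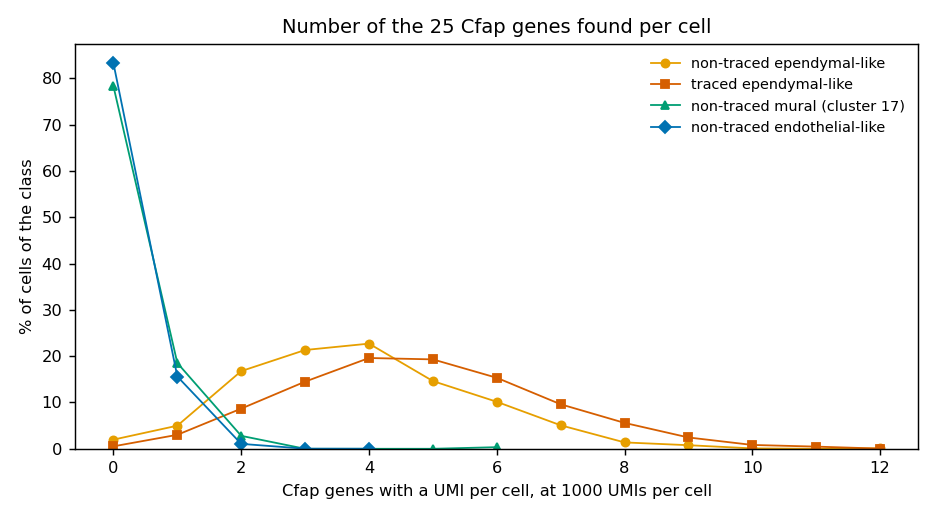
Percentage of the cells of each class (vertical axis) against the number of the 25 Cfap genes with a UMI in the cell (horizontal axis), after each cell was thinned to 1000 UMIs. The ependymal-like curves peak at 4 genes per cell, whereas 83.3% of endothelial-like and 78.3% of mural cells have none.

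At 1000 UMIs, Cfap54 was found in 52.3% (50.8 to 53.7) of traced and 35.3% (32.5 to 38.1) of non-traced ependymal-like cells and in 0.0712% of endothelial-like cells. Cfap126 was found in 30.3% (29.0 to 31.6) and 39.6% (36.8 to 42.5) of ependymal-like cells and in 0.138% of endothelial-like cells. The libraries thus differed in opposite directions for these members. Cfap20 was found in 36.7% and 33.2% of ependymal-like cells and in 7.95% of endothelial-like cells. Cfap58 and Cfap99 were found in 2.06% and 1.60% of traced and in 0.688% and 0.861% of non-traced ependymal-like cells, and in no endothelial-like cell at this thinned depth, although 3 and 4 UMIs of them were counted there at full depth.

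The comparison of traced with non-traced ependymal-like cells is the one the sort was made for. The summed Cfap level was 5824 CPM (5802 to 5846) in the traced and 4463 CPM in the non-traced library. Of the 25 members 24 were higher in traced cells, compared with 49.3% of the 14842 genes tested, and the median difference was 0.34 on the log2(CPM + 1) scale, compared with -0.01 over all genes. No member differed by more than 1, whereas 0.997% of all genes were higher and 3.02% lower by more than 1. The counting interval of the log2 ratio stayed above 0 for 22 members, included 0 for Cfap53 and Cfap77, and stayed below 0 for Cfap126. The share of all genes with such intervals was not counted. Vascular transcripts differed alongside. The 8 endothelial markers summed to 379 CPM in non-traced ependymal-like cells against 14.3 CPM in traced ones, and 41.9% of the former but 0.0851% of the latter carried at least 2 of the 4 vascular transcripts. Without those cells the median difference was 0.38. Mitochondrial genes took 5.79% of the UMIs of non-traced and 4.08% of those of traced ependymal-like cells, and Gm42418 stood at 13148 and 33330 CPM. With these genes and Mir6236 out of the total the median difference was 0.35. When whole clusters were named it was 0.54.

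**Figure D4:**
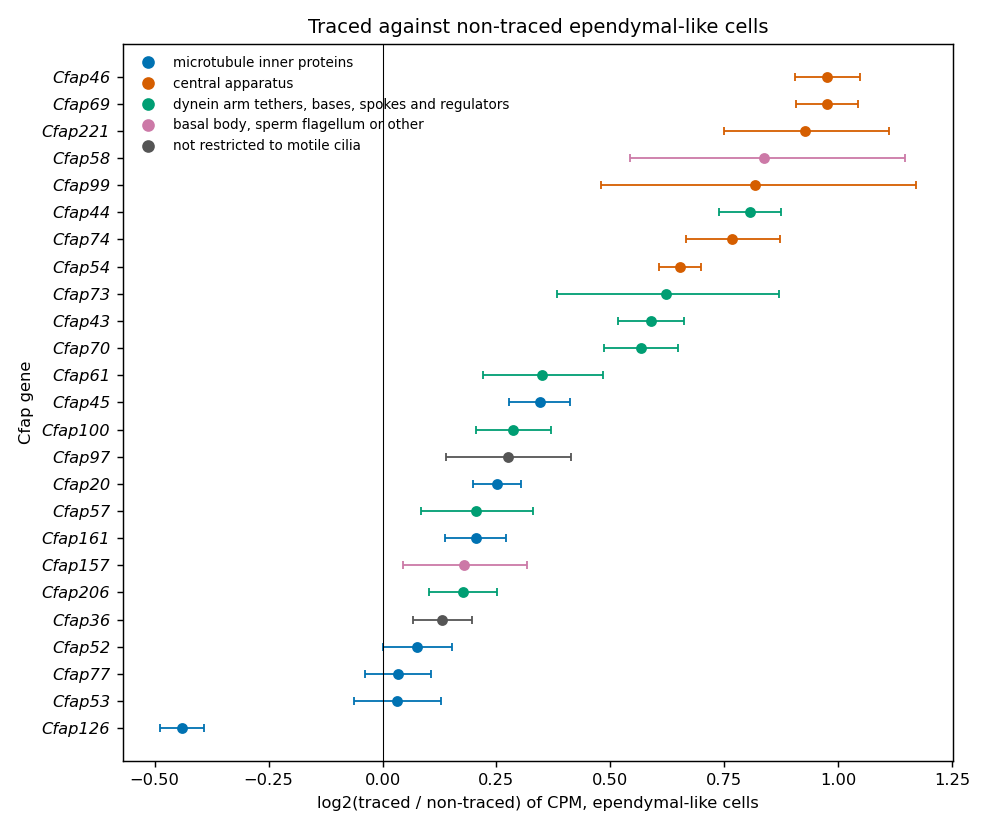
log2 ratio of CPM in traced to non-traced ependymal-like cells (horizontal axis) for each Cfap gene (vertical axis), coloured by the role of the protein, with 95% exact intervals of counting error. The central apparatus genes lie toward the right, with Cfap46 and Cfap69 furthest, the microtubule inner proteins lie toward the left, and Cfap126 is the only gene below 0.

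The size of the difference varied with the role of the protein. The 6 central apparatus members were all among the 8 with the largest differences, and their median was 0.83. Cfap46 stood at 391 CPM in the traced and 199 CPM in the non-traced library, a difference of 0.97. Cfap69 stood at 445 and 227 CPM, also 0.97. Cfap221 stood at 61.2 and 32.1 CPM, a difference of 0.91. Cfap74 (170 and 99.6 CPM), Cfap99 (16.1 and 9.13 CPM) and Cfap54 (770 and 489 CPM) differed by 0.76, 0.75 and 0.65.

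The 8 members that tether, anchor or regulate dynein arms and spokes had a median difference of 0.45. Cfap44 stood at 393 and 224 CPM in traced and non-traced cells (0.80), Cfap73 at 28.1 and 18.3 CPM (0.60), Cfap43 at 308 and 205 CPM (0.59) and Cfap70 at 238 CPM in traced cells (0.56). Cfap61, Cfap100, Cfap57 and Cfap206 differed by less, from 0.35 down to 0.18, with traced levels of 80.03, 191, 84.6 and 223 CPM. The members of other roles were spread over the range. Cfap58 stood at 21.1 and 11.8 CPM (0.79), Cfap157 at 66.9 and 59.1 CPM (0.18), Cfap97 at 69.95 and 57.8 CPM (0.27) and Cfap36 at 290 and 265 CPM (0.13).

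The 7 microtubule inner proteins had a median difference of 0.08. Cfap45 stood at 307 and 242 CPM in traced and non-traced cells (0.34), Cfap20 at 473 and 398 CPM (0.25) and Cfap161 at 274 and 238 CPM (0.20). Cfap52, Cfap77 and Cfap53 had nearly the same level in both libraries, with 206 and 195 CPM, 218 and 213 CPM, and 126 and 123 CPM. Cfap126 was lower in traced cells, at 375 against 508 CPM, a difference of -0.44 (interval of the log2 ratio -0.49 to -0.39).

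The order of the role groups was the same under each of 4 other settings, namely a stricter filter on cells, removal of cells with vascular transcripts, a total without mitochondrial genes, Gm42418 and Mir6236, and naming of whole clusters. Over these settings the median ranged from 0.78 to 1.05 for the central apparatus and from 0.07 to 0.29 for the microtubule inner proteins, and Cfap126 lay between -0.48 and -0.24.

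Ependymal-like cells were divided into sub-clusters in each library alone, without the Cfap, endothelial-list and pericyte-list genes. The traced library gave 8 sub-clusters of 102 to 880 cells, whose summed Cfap level ranged from 4500 to 6947 CPM. The highest level, 6947 CPM (6892 to 7002), was that of sub-cluster 1 (825 cells), led by Sntn, Sncg and Anxa8. Sntn encodes sentan, a protein of the ciliary tip. The lowest, 4500 CPM (4386 to 4616), was that of sub-cluster 7 (102 cells), led by cell division genes such as Mki67, Pbk and Top2a. The others lay between 5176 and 5909 CPM. They were led by Tmem163 and Pcdh8 (sub-cluster 0, 5574 CPM), the immediate early genes Atf3, Egr1 and Junb (sub-cluster 2, 5568 CPM), Gm42418 (sub-cluster 3, 5176 CPM), Rn7sk and Pth2r (sub-cluster 4, 5909 CPM), Hox genes of the caudal cord such as Hoxd10 (sub-cluster 5, 5689 CPM), and Vtn and Ucma (sub-cluster 6, 5603 CPM). In sub-cluster 3 Gm42418, which overlaps ribosomal RNA sequence, took 86681 CPM of the total. With Gm42418, Mir6236 and the mitochondrial genes out of the total its Cfap level was 5978 CPM, between those of sub-clusters 2 (5847 CPM) and 4 (6455 CPM).

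The non-traced library gave 6 sub-clusters of 91 to 276 cells. The one with the highest Cfap level, 5663 CPM (5498 to 5833) in 91 cells, was again led by Sntn, Anxa8 and Sncg, and the others ranged from 3884 to 4775 CPM. The endothelial markers summed to between 334 and 597 CPM in these sub-clusters. The highest of these values was in sub-cluster 4, which had the lowest Cfap level and was led by Notch3, a pericyte marker. Its leading genes also included Mki67, and those of sub-cluster 2 (4186 CPM) included Hist1h1b and Top2a. A list of cell division markers summed to 64.0 and 55.7 CPM in sub-clusters 4 and 2, against 1846 CPM in traced sub-cluster 7.

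**Figure D5:**
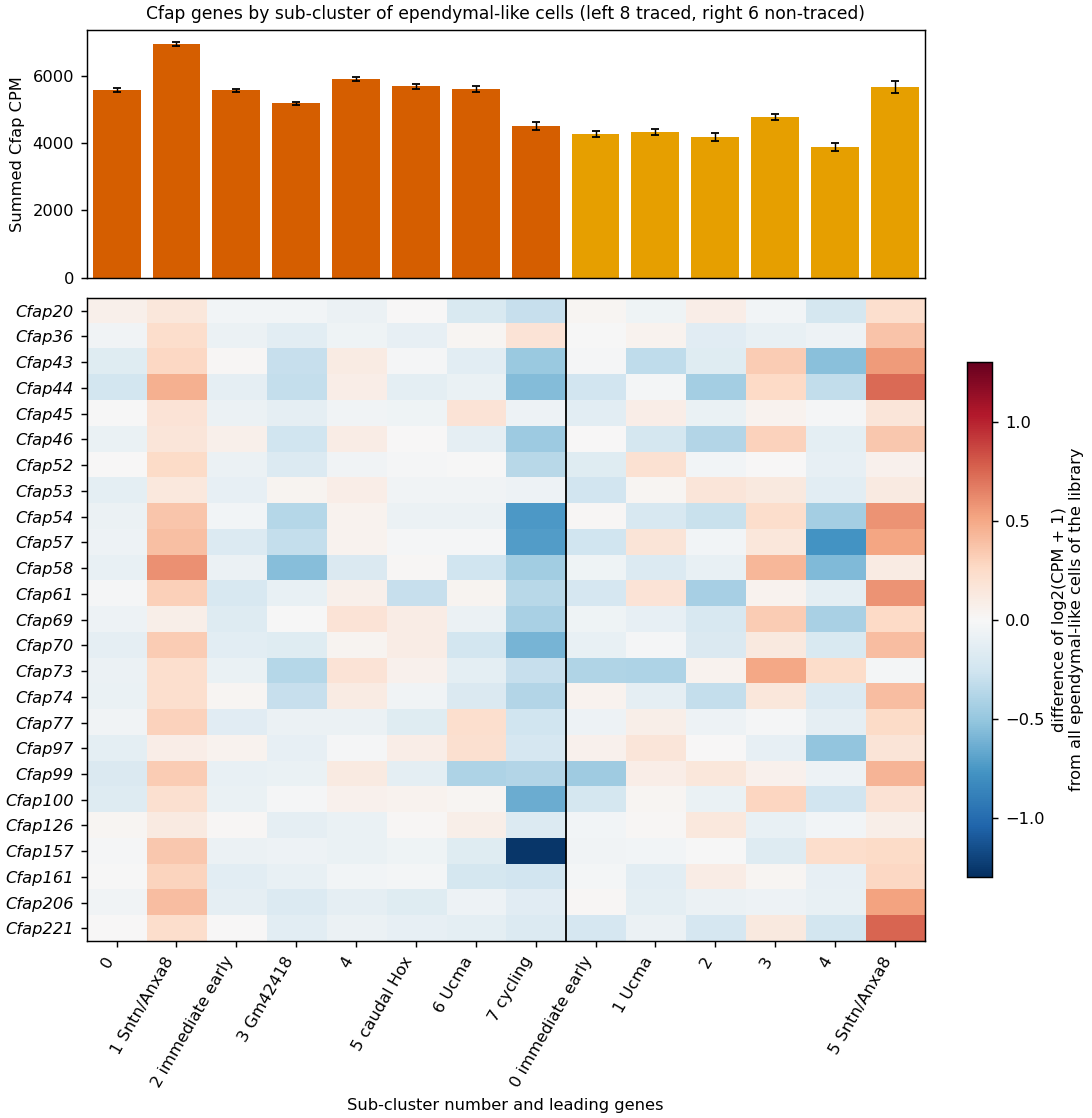
Upper panel, summed Cfap level in CPM with 95% exact Poisson intervals in the 8 traced and 6 non-traced sub-clusters of ependymal-like cells; lower panel, for each Cfap gene, the difference of log2(CPM + 1) between the sub-cluster and all ependymal-like cells of its library. The sub-clusters led by Sntn and Anxa8 are highest in both libraries (6947 and 5663 CPM), and the cycling sub-cluster is lowest in the traced library (4500 CPM).

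In the sub-cluster led by Sntn and Anxa8 all 25 members were higher than in the other traced ependymal-like cells, compared with 51.2% of the 14491 genes tested, and the median difference was 0.32. In the non-traced library 24 of 25 were higher, compared with 52.6% of 15782 genes, and the median was 0.29. The interval of the log2 ratio stayed above 0 for 24 and 15 members, and the share of all genes was not counted. No member differed by more than 1, compared with 1.12% of genes higher and 1.46% lower by that much in the traced library and 6.27% and 10% in the non-traced library. For 22 members this sub-cluster had the highest level of the 8 traced sub-clusters, and for 18 the highest of the 6 non-traced ones. The share of all genes that were highest in it was not counted. The median depth of the sub-cluster was 9382 UMIs per cell in the traced library, below that of sub-clusters 4 (9438) and 7 (11093.5). In the non-traced library its 7992 UMIs were the most of the 6 there.

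Single members were set side by side in both libraries. Cfap44 stood at 539 CPM in the traced sub-cluster against 358 CPM in the other traced cells (0.59), and at 374 CPM in the non-traced sub-cluster (0.83). Cfap206 stood at 295 against 206 CPM (0.52) in the traced and 284 against 189 CPM (0.59) in the non-traced library. Cfap54 stood at 991 against 717 CPM (0.47) and at 736 against 465 CPM (0.66). The size was not the same in both libraries for other members. Cfap58 had the largest traced difference, at 32.3 against 18.4 CPM (0.78), but 12.8 against 11.7 CPM on 10 UMIs in the non-traced sub-cluster (0.12). Cfap221 had the largest non-traced difference, at 54.96 against 29.9 CPM (0.86), with 72.1 against 58.6 CPM in the traced library. Cfap52 differed by 0.32 and 0.06, Cfap73 by 0.27 and -0.03, and Cfap43 by 0.33 and 0.62 in the traced and the non-traced library. Cfap69 and Cfap97 had the smallest traced differences, 0.09 and 0.11, and the interval of Cfap97 included 0.

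In the cycling sub-cluster of the traced library 1 of 25 members was higher than in the other traced cells, compared with 56.4% of the 15106 genes tested, and the median difference was -0.37. The interval stayed below 0 for 16 members, again with no share of all genes counted. Cfap157 was the only member lower by more than 1, at 27.3 against 68.1 CPM (-1.29), and 3.57% of all genes were lower and 10.4% higher by that much. Cfap54 stood at 459 against 779 CPM (-0.76) and Cfap57 at 50.7 against 85.6 CPM (-0.74). The member that was higher was Cfap36, at 328 against 289 CPM (0.18, interval of the log2 ratio 0.04 to 0.32). The endothelial markers summed to 406 CPM in this sub-cluster and to at most 4.51 CPM in the other traced ones. Without the cells that carried at least 2 of the 4 vascular transcripts (3 of the 102) the median difference was -0.36.

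Sub-clusters led by the same markers in both libraries could be set side by side. For those led by Sntn and Anxa8 the log2 ratio of the summed Cfap level in traced to non-traced cells was 0.29 (0.25 to 0.34), and 23 of 25 members were higher in traced cells, compared with 48.1% of the 15533 genes tested. For those led by Ucma the levels were 5603 and 4336 CPM, a log2 ratio of 0.37 (0.33 to 0.41), and 22 of 25 members were higher, compared with 51.8% of 15286 genes. The median was 0.61 and 0.82 for the central apparatus, 0.30 and 0.31 for the members that tether or regulate dynein arms and spokes, and 0.18 and 0.11 for the microtubule inner proteins. The order of the other groups differed in the pair led by Sntn and Anxa8, where the median of Cfap58 and Cfap157, 0.77, was above that of the central apparatus and that of Cfap36 and Cfap97, 0.09, below that of the inner proteins. Cfap126 was lower in traced cells in both (-0.40 and -0.38). The pair led by Ucma was traced sub-cluster 6 (271 CPM of Ucma) and non-traced sub-cluster 1 (427 CPM). Non-traced sub-cluster 4 also carried Ucma (317 CPM), with a summed Cfap level of 3884 CPM, and was not part of the pair.

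Other genes of motile cilia were taken from a list of 60 genes for dynein arms, radial spokes, the central pair, the nexin-dynein regulatory complex, other tubule proteins and transcription factors, of which 58 were in the tables. In the comparison of ependymal-like with endothelial-like cells 57 passed the filter. All 57 were higher by more than 1, compared with 31% of all genes tested, and their median difference was 6.58. Foxj1, Rsph1 and Tekt1 were also among the 10 ependymal markers, and the listed genes were not left out of the clustering. This count therefore follows in part from how the cells were classed. In traced against non-traced ependymal-like cells 48 of 57 were higher, compared with 49.3% of all genes tested, with a median of 0.26. The central pair genes (0.58) and the dynein arm genes (0.50) had larger medians than the radial spoke genes (0.15) and the transcription factors (0.04). The median was 0.22 for the nexin-dynein regulatory complex and 0.03 for the other tubule proteins. In the sub-cluster led by Sntn and Anxa8 52 of 57 were higher in the traced library (51.2% of all genes tested). In the non-traced library 50 of 57 were higher (52.6% of all genes tested). These genes, unlike the Cfap genes, took part in the sub-clustering, so their counts follow in part from how the cells were divided. With sub-clusters made without them the median difference of the Cfap genes was 0.32 and 0.31. Dnah3, an inner arm dynein heavy chain, differed most, by 1.97 and 2.6, and Myb, a regulator of multiciliated cell formation, by 0.99 and 1.24. In the cycling sub-cluster 4 of 58 were higher, compared with 56.4% of all genes tested, with a median of -0.39.

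The genes outside the family most like the summed Cfap level were found by Pearson's r of log2(CPM + 1) over 17 points (3 cell classes and 14 sub-clusters), among 5746 genes of at least 50 CPM. They were Rabl2 (0.998), Lrrc71 (0.997), Casc1 (0.997), Fank1 (0.996) and Ankrd45 (0.996). The points share 2 libraries and include the gap between ependymal-like and vascular cells. Over the 14 sub-clusters alone the 5 highest were Ccdc180 (0.977), Dnah12 (0.977), Spag6l (0.975), Rev3l (0.962) and Spef2 (0.957). All 5 were also higher in traced than in non-traced ependymal-like cells, for example Ccdc180 at 258 against 161 CPM. The part of this step between the libraries in r was not tested. Within the family, Cfap54 (0.975), Cfap70 (0.969) and Cfap44 (0.969) had the highest r over the sub-clusters, and Cfap126 was the only member with a negative value (-0.56). These sub-clusters come from both libraries, which differ in the level of Cfap126. In the traced library alone Cfap126 was highest in sub-cluster 1 (406 CPM) and lowest in sub-cluster 7 (330 CPM), like the summed level. In the non-traced library it was highest in sub-cluster 2 (557 CPM) and lowest in sub-cluster 3 (476 CPM), unlike the summed level there.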

How the data were processed

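Per the labels and the study's methods, the authors sequenced both libraries with 10x Chromium 3′ kits, aligned reads to mm10 with Cell Ranger 3.0.2 (STAR 2.5.1b) and deposited UMI counts per gene and cell, which were used as deposited. Both tables met the study's filter on cells (at least 50 genes, mitochondrial genes at most 10% of those detected). Cells were integrated and clustered with Seurat 5.3.0 in R 4.3.3 (2000 features, 20 components, resolution 0.8), leaving out Cfap genes and tdTomato. Within a cluster the cells of each library were named separately from marker lists. A name needed at least 3 markers in 50% of cells, a cluster with 70% of another type's markers was called mixed, and these limits were set after seeing the data. Mixed and unnamed clusters (2213 and 657 non-traced, 16 and 46 traced cells) were left out. The 617 non-traced cells of cluster 13, with ependymal and endothelial markers, were among the mixed ones.

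Counts were summed over the cells of a class and divided by their total (CPM), with exact Poisson and Clopper-Pearson intervals (Python 3.11.15, scipy 1.17.1). These 3′ counts are not divided by transcript length. A gene was tested at 1 CPM or more in either side and called at a difference over 1 in log2(CPM + 1). With 1 library per group no significance test was run. Scrublet (scanpy 1.11.5) called 2209 non-traced cells (8.69%) and 0 traced cells as doublets, so the alternative that left out called cells removed non-traced cells only. Interval code was tested on simulated data. Values were printed for members at 50 CPM or more in ependymal-like cells, those with the largest differences, those within 1 of endothelial-like cells and those at 0, and other members were added after their values were seen. The members, lists and comparisons were chosen with earlier results of these data known.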

Additional observations from a re-analysis of the deposited data

How the results depend on the processing

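The median difference between ependymal-like and endothelial-like cells became 7.91 with a pseudocount of 0.1 and 6.06 with median-of-ratios scaling, which moved the median of all genes from 0.23 to -0.24. It lay between 6.24 and 6.57 in the other 8 alternatives. The median difference between traced and non-traced ependymal-like cells became 0.54 when whole clusters were named and lay between 0.31 and 0.38 in 10 others, among them leaving out the 42 shared barcodes. The stricter filter left 329 of the 1162 non-traced cells. The number of members higher in cycling cells became 2 with the mean of per-cell CPM, and the median difference there lay between -0.51 and -0.31 over 9 alternatives. The number of members found per cell depended on depth. Without thinning it was 18 and 14 for ependymal-like cells of the traced and non-traced libraries and 1 for endothelial-like cells, and 11 and 9 in the ependymal-like cells at 3000 UMIs. It was 3 in non-traced ependymal-like cells when whole clusters were named. Without integration no cluster was named as mural, so that comparison has no value there. The causes of these shifts were not tested. The comparison with mural cells and both comparisons of the sub-clusters led by Sntn and Anxa8 kept their direction in every alternative run. No paired analysis was possible because each group has 1 library.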

Other observations

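Some genes of the family were listed under older symbols and so were not members. By RefSeq symbols there were 9 of these. Of the 8 that passed the filter of 1 CPM, 8 were higher by more than 1 on the log2(CPM + 1) scale in ependymal-like than in endothelial-like cells, compared with 31% of all genes tested. Ccdc108 (Cfap65) had 188 CPM in the non-traced and 321 CPM in the traced ependymal-like class, against 0.798 CPM in endothelial-like cells. Gm7173 (Cfap47) stood at 75.7 and 170 CPM in non-traced and traced ependymal-like cells, a difference of 1.16, larger than that of any of the 25 members. Both encode central apparatus proteins. 1700007G11Rik (Cfap299) stood at 275 and 299 CPM, and 1110004E09Rik (Cfap298) at 316 and 373 CPM with 37.6 CPM in endothelial-like cells. In traced cells 7 of the 8 were higher, compared with 49.3% of all genes tested.

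The difference between traced and non-traced ependymal-like cells was set beside the length of the gene on the genome. Spearman's rho was 0.40 over the 25 members, 0.50 over 57 other cilia genes, 0.34 over 1235 genes outside the family that were higher by more than 1 in ependymal-like cells, and 0.24 over 14335 genes. These are correlations across genes that share the same pair of libraries, and genes are not independent replicates. The part of gene length in the differences between role groups was not tested.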
